A study of Mus musculus with 19 samples.

Results

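The genes described here are 33 factors of ribosome biogenesis, followed through 7 blood cell populations of the mouse bone marrow. They were chosen by name and then matched to array probes through the RefSeq accession that each probe carries. All 33 were found among the 20667 named genes on the array, and where a gene had more than 1 probe, the brightest stood for it. The set holds RNA polymerase I subunits and their initiation factor (Polr1a, Polr1b, Polr1c and Rrn3), abundant nucleolar proteins (Ncl, Npm1, Nolc1 and Mybbp1a), box C/D snoRNP proteins (Fbl, Nop56 and Nop58) and box H/ACA snoRNP proteins (Dkc1, Gar1 and Nhp2). It also holds 8 proteins of the small subunit processome (Utp14a, Utp15, Utp18, Utp20, Wdr43, Heatr1, Rrp9 and Nop14), 5 that act later on the small subunit (Nob1, Tsr1, Bysl, Ltv1 and Rrp12) and 6 that build the large subunit (Bop1, Pes1, Wdr12, Nop2, Nop16 and Rrp1).

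Ribosomes are made in the nucleolus, where RNA polymerase I transcribes the long precursor of the ribosomal RNAs. Small nucleolar RNPs modify that precursor, the box C/D class by methylation and the box H/ACA class by pseudouridylation, and the processome folds and cleaves it while large and small subunits are put together and exported. In blood formation the pathway is best known from inherited anemias in which ribosome production is impaired, and from the loss of nucleoli as red cells and granulocytes mature.

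Total RNA was measured on 19 single-colour Agilent arrays, 1 per sample, from marrow cells of C57BL/6 mice, adults of 8 to 12 weeks, and the labels give no genetic change or treatment for any group. Stem and multipotent cells were sorted as LSK cells (without lineage markers, with Kit and Sca-1; 3 arrays). The myeloid progenitors, with Kit but without Sca-1, were divided by CD34 and CD16/32 into common myeloid progenitors (CMP; CD34 high, CD16/32 low; 3 arrays), megakaryocyte-erythroid progenitors (MEP; both low; 3 arrays) and granulocyte-macrophage progenitors (GMP; both high; 2 arrays). Early erythroblasts were large Ter119-positive cells with high CD44 (2 arrays), late erythroblasts small Ter119-positive cells with intermediate CD44 (3 arrays), and granulocytes were taken by Gr1 (3 arrays). The labels do not say that replicates came from separate animals, so the p-values measure only how far these samples spread, and part of that spread can be technical.

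A level is the log2 of the processed intensity minus that of the array's 75th percentile, so 0 is the 75th percentile and 1 unit is a doubling. The 75th percentile itself lay at an intensity of 50.1 to 81.32 on the erythroblast arrays and 265.6 to 606.5 on the others, and 42.93% to 47.06% of spots were well above background on the former against 49.46% to 66.29% on the latter. The 100 brightest spots took 28.42% to 39.12% of the summed signal in erythroblasts and 12.34% to 15.38% elsewhere, so levels in erythroblasts are relative to an array dominated by few transcripts. The 5 erythroblast markers (Hba-a1, Hbb-bt, Alas2, Slc4a1 and Epb42) exceeded background on every erythroblast array, and all markers of granulocytes and of LSK cells did so in the cells they name. A lower level in a sorted population can come from fewer cells of a type or from less RNA per cell, and these cannot be told apart.

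Because most of the genes moved together, the letters before and just after their start sites are shown first. RefSeq promoter windows on build GRCm38.p6 (250 bases before the start and 50 after it) matched 29 of the 33; Npm1, Rrp12, Fbl and Bop1 had no entry. The E-box CACGTG, which reads the same on both strands and is bound by Myc with Max, was found in 9 of 29 genes (31%) against 8.09% of 27025 genes in the table. The ETS core CCGGAAG, searched on both strands and unable to overlap the E-box, was found in 10 of 29 (34.5%) against 9.93%. In the separate list of other biogenesis genes the shares were 16.7% and 46.9% of 96. A match describes letters, not binding, and 15 of the 29 held neither motif.

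In 6 genes the E-box began at or after the start, and without the last 50 bases of the window only 3 genes of 29 held one, or 10.3% against 6.86% of the table. Each of the 6 is shown with 30 bases about the motif, which is in capitals:
Ltv1, chr10:13193092-13193121, minus strand: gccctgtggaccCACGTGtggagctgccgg
Mybbp1a, chr11:72441347-72441376, plus strand: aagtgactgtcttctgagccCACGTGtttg
Pes1, chr11:3963965-3963994, plus strand: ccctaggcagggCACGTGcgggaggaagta
Tsr1, chr11:74898092-74898121, plus strand: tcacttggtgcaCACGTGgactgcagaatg
Utp20, chr10:88826765-88826794, minus strand: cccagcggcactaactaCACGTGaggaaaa
Wdr43, chr17:71616220-71616249, plus strand: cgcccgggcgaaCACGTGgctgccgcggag

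In the other 3 it lay before the start, with Rrn3 holding it at both -215 and -48. Rrn3 also held CCGGAAG at -5, where the end of the stretch cuts it, and at 18, and Utp18 held a second one at 6. These are not marked below. The 250 bases before the start are shown, with either motif in capitals where it lies wholly inside them:
Nop2, chr6:125131633-125131882, plus strand: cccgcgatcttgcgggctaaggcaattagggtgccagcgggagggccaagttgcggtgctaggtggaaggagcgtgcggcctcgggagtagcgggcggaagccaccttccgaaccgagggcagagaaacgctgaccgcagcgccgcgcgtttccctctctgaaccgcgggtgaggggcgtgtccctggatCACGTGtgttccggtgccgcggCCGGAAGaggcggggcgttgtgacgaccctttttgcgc
Rrn3, chr16:13780449-13780698, plus strand: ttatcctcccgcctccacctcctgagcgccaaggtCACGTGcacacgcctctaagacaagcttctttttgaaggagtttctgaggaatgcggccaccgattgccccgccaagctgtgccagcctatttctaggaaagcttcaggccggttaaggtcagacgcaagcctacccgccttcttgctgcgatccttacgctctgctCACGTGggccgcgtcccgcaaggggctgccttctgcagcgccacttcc
Utp18, chr11:93885767-93886016, minus strand: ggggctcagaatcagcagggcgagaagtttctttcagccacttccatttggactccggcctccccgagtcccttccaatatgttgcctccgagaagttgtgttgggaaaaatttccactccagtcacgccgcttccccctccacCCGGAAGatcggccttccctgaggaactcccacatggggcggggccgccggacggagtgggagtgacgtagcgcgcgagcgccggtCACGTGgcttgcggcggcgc

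For comparison the same stretch is given for Bysl, Heatr1 and Polr1a, whose levels over the cell types were least like those of the others (below). None of these held CACGTG, but most genes with a window lacked it, among them Gar1 and Nhp2, whose levels followed those of the others. Heatr1 held CCGGAAG at -16:
Bysl, chr17:47611493-47611742, minus strand: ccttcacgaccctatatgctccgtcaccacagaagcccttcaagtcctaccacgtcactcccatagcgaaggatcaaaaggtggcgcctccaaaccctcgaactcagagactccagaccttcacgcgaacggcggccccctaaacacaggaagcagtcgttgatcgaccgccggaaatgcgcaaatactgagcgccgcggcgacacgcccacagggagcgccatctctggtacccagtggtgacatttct
Heatr1, chr13:12395125-12395374, plus strand: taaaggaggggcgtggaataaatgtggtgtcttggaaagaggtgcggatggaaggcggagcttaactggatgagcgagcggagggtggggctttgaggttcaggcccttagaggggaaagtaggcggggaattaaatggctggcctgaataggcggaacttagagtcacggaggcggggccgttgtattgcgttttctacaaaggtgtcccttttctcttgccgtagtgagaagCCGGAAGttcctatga
Polr1a, chr6:71908803-71909052, plus strand: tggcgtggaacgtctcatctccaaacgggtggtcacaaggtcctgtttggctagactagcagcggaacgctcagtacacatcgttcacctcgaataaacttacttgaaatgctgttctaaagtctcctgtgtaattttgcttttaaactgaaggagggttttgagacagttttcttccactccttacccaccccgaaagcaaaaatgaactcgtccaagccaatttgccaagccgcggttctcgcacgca

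The shared pattern was a rise from LSK cells to progenitors, a plateau over CMP, MEP and GMP, and a steep loss in both mature lineages that was deeper in erythroblasts. Utp18, a processome protein, was not well above background on every array of any cell type and was left out, so 32 genes were tested. Relative to each gene's LSK mean, the median of the 32 was -0.07 to 0.05 on the LSK arrays, 0.72 to 0.90 on the CMP arrays, 0.65 to 0.80 on the MEP arrays and 0.69 to 0.82 on the GMP arrays. It was -3.36 and -2.89 on the early erythroblast arrays, -2.88 to -2.79 on the late ones and -1.50 to -1.44 on the granulocyte arrays. No array of a progenitor overlapped an array of LSK cells or of a mature population in this median.

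**Figure D1:**
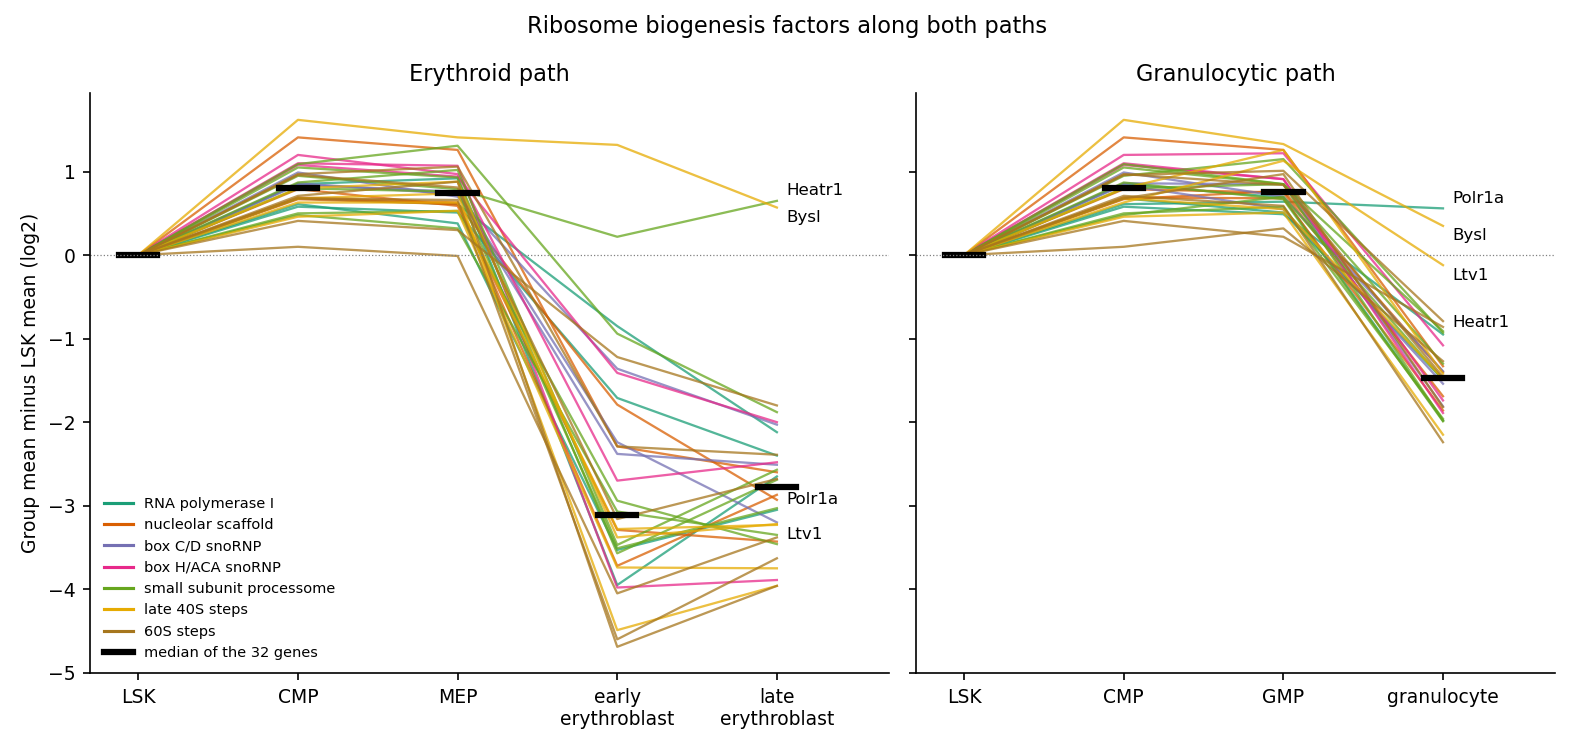
Mean level of each of 32 genes minus its mean in LSK cells (log2, vertical axis) along the erythroid path (left) and the granulocytic path (right). Lines are genes coloured by role and black bars are medians over the genes; most lines fall after the progenitors, and Bysl, Heatr1 and Polr1a leave them.

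The highest mean of a gene was in CMP for 13, in GMP for 12 and in MEP for 7, and the 3 progenitor means of a gene spanned a median of 0.21. The lowest mean was in 1 of the erythroblast stages for 30, in granulocytes for Heatr1 and in LSK cells for Bysl. For 6 of the 30 (Utp15, Utp20, Nob1, Tsr1, Rrp12 and Wdr12) values at the background were among those of both stages. Limma's moderated F test over the 7 cell types called 32 of 32, where 95.6% of all features tested were called. Over the 7 cell type means, which share the scaling of their arrays, the profile of a gene correlated with the median of the other genes at a median Pearson r of 0.98; the lowest values were 0.31 for Bysl, 0.44 for Heatr1 and 0.87 for Polr1a.

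**Figure D2:**
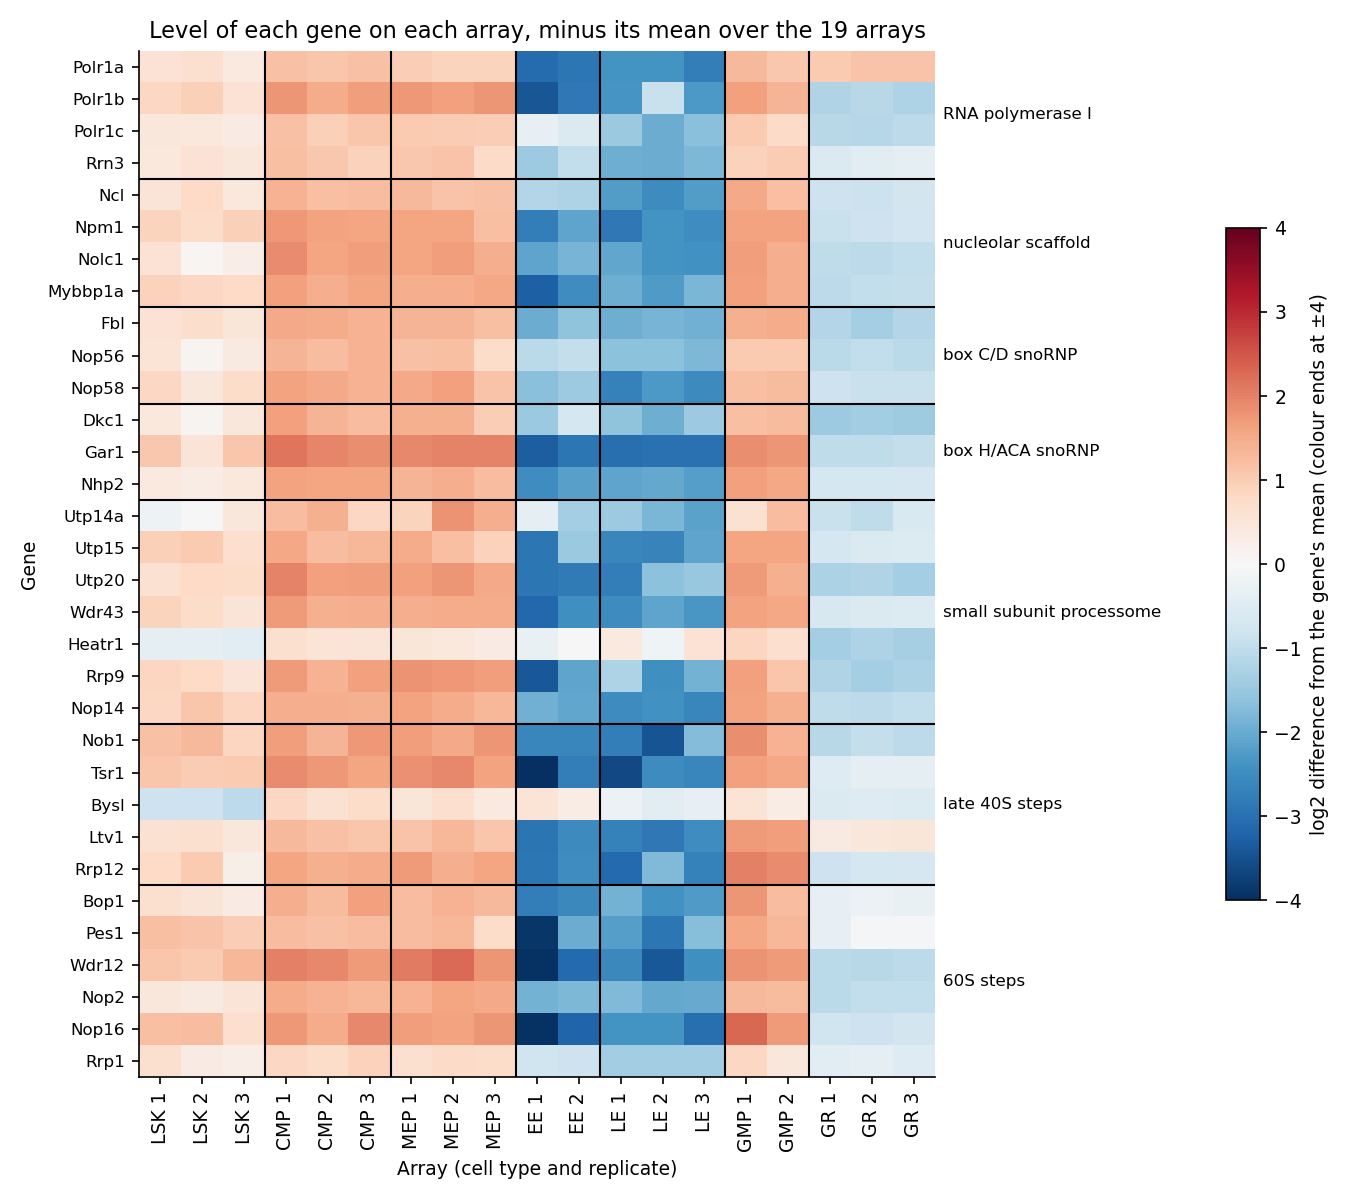
Level of each of 32 genes on each of 19 arrays minus the gene's own mean over the arrays (log2, colour). Columns are arrays of LSK, CMP, MEP, early erythroblast (EE), late erythroblast (LE), GMP and granulocyte (GR) samples, rows are grouped by role; the blue blocks are erythroblasts and, paler, granulocytes. Values of Utp15, Utp20, Nob1 and Rrp12 in early erythroblasts lie at the background.

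From LSK cells to CMP, 28 of 32 genes rose and 0 fell, where 23.3% of all features tested were called higher and 13.5% lower. In both groups all 32 exceeded background on each array. The median difference over the 32 was 0.80, against 0.17 over all features. The rise covered every step of the pathway: all 4 RNA polymerase I genes, all 4 nucleolar proteins, all 6 snoRNP proteins, 6 of 7 processome proteins, 3 of 5 later small subunit factors and 5 of 6 large subunit factors. Those not past the test were Utp15 (0.48), Nob1 (0.46), Tsr1 (0.68) and Pes1 (0.10), the last a scaffold of large subunit assembly.

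Bysl, an adaptor needed late in small subunit assembly, had the largest rise of the 32. Its level was 2.50, 2.48 and 2.27 in LSK cells and 4.15, 3.92 and 4.05 in CMP. The groups did not overlap, and the difference was 1.62 ± 0.12 (standard error), or 3.07-fold, with an adjusted p of 1.6e-07. Nolc1, a chaperone that shuttles snoRNPs to the nucleolus, lay at 4.05, 3.56 and 3.75 in LSK cells and at 5.38, 5.07 and 5.16 in CMP. Its difference was 1.42 ± 0.14 with an adjusted p of 3.3e-06. Nhp2, a core protein of box H/ACA particles, lay at 5.88, 5.76 and 5.89 in LSK cells and at 7.07, 7.04 and 7.05 in CMP, a difference of 1.21 ± 0.10 with an adjusted p of 5.8e-07. In each of the 3 every CMP array was above every LSK array.

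Npm1, the histone and ribosome chaperone that makes up much of the nucleolus, rose by less, from 7.68, 7.53 and 7.76 in LSK cells to 8.54, 8.42 and 8.38 in CMP (difference 0.79 ± 0.17, adjusted p 0.0019). The 4 other Npm1 probes gave 0.68 to 1.31. Over the 28 that rose, the smallest rise was 0.42, that of Rrp1, which became -0.06 after quantile normalization (adjusted p 0.75). The number past the test depended on the scaling. It was 17 after quantile normalization, 15 where the 75th percentile came from probes seen on all arrays, and 2 with spike-in scaling. In each of these 0 fell. The median differences of the 32 were 0.50, 0.48 and 1.18 in that order, against 0.09, -0.15 and 0.55 over all features. With the slide as a block 24 rose, and on both slides that held the 2 cell types all 32 were higher in CMP (medians 0.83 and 0.70). The arrays of these slides were among those that gave the calls, so this is no separate check. Granulocyte markers ran the other way: all 6 were well above background in both groups, with a summed level of 1160 to 1300 in LSK cells and 161 to 292 in CMP, and their part in this result was not tested.

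Among the progenitors few differences passed the test. MEP against CMP gave 0 of 32 in limma's fit, where 1.87% of all features were higher and 2.65% lower, and 0 under each alternative tried. At an unadjusted p under 0.05 limma gave 1, which was lower in MEP. The differences ran from -0.29 (Nop56) to 0.22 (Utp14a) with standard errors of 0.10 to 0.37. Changes of that size could therefore not be told from the spread between arrays. Of 6 erythroid-megakaryocytic progenitor markers (Gata1, Gata2, Klf1, Epor, Pf4 and Itga2b) 1 was called higher in MEP than in CMP and 0 lower. Of the 5 erythroblast markers 0 were higher and 4 lower in MEP, and of 6 granulocyte-macrophage progenitor markers 0 and 4. Their part in this result was not tested. GMP against CMP gave 1 of 32 higher and 0 lower (9.53% and 8.48% of all features), and MEP against GMP gave 0 higher and 1 lower (13.5% and 18.5%).

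The gene called in both was Ltv1, which leaves the young small subunit late in its assembly. Its level was 5.07 and 5.04 in GMP, 4.65, 4.54 and 4.47 in CMP, and 4.51, 4.69 and 4.46 in MEP. Both GMP arrays were above every CMP and MEP array. GMP exceeded CMP by 0.50 ± 0.14 (adjusted p 0.02) and MEP by the same amount (adjusted p 0.012); these 2 comparisons share the GMP samples. The first call was lost without either GMP array, without CMP 2 or CMP 3, and with the slide as a block (adjusted p 0.058 to 0.11). The second was lost without either GMP array (adjusted p 0.073 and 0.057) and in a fit on MEP and GMP alone (0.052). Under spike-in scaling both signs turned, with GMP against CMP at -0.24 (adjusted p 0.76) and MEP against GMP at 0.26 (adjusted p 0.75). Neither Ltv1 call held with quantile normalization or with the percentile over detected probes. That in GMP against CMP was also lost without a filter. Other genes passed the test under those scalings. With quantile normalization 3 were lower in GMP than in CMP and 6 were higher in MEP than in GMP. With the percentile over detected probes these were 2 and 5.

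From MEP to early erythroblasts most of the pathway fell: of the 26 genes that exceeded background throughout in MEP and in early erythroblasts, 25 were lower and 0 higher, where 37.7% of all features were called lower and 43.6% higher. Those shares cover features measured throughout in either group. The median difference of the 26 was -3.51, against 0.54 over all features measured throughout in both groups. Of the calls among the latter 60.3% were higher. The other 6 were measured throughout in MEP, but in early erythroblasts 4 (Utp15, Utp20, Nob1 and Rrp12) were well above background on 0 of 2 arrays and 2 (Tsr1 and Wdr12) on 1 of 2. Those 6 entered only through MEP and had to differ to be there; all 6 were called lower, which makes 31 of 32. Under the scaling that moved all features most, by spike-ins, the median of all features was -3.32 and that of the 32 genes -7.33.

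Among these 26 the largest falls were those of Nop16, Gar1 and Polr1b. Nop16, a large subunit factor that Myc is known to induce, lay at 3.34, 3.28 and 3.44 in MEP and at -2.28 and -1.52 in early erythroblasts, a fall of -5.26 ± 0.26 (adjusted p 7.9e-11). Gar1, a box H/ACA protein, had levels of 6.08, 6.13 and 6.12 in MEP and of 0.86 and 1.25 in early erythroblasts, a change of -5.05 ± 0.17 (adjusted p 1.8e-12). Polr1b, the second largest subunit of RNA polymerase I, lay at 3.12, 3.04 and 3.14 in MEP and at -2.04 and -1.49 in early erythroblasts, a change of -4.87 ± 0.32 (adjusted p 2.2e-09). None of the 3 had groups that overlapped; Gar1 and Polr1b were chosen after their values were seen.

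Wdr12 and Tsr1 were well above background on only the second of the 2 early erythroblast arrays, so their fitted falls rest in part on a value at the background. Both passed the filter through MEP only, so no p-value is given for them. Wdr12, which forms the complex with Pes1 and Bop1 that processes the precursor of the large rRNAs, lay at 2.60, 2.80 and 2.31 in MEP and at -3.41 and -2.59 in early erythroblasts (fitted difference -5.57 ± 0.26). Tsr1, a GTPase-like factor of the small subunit, lay at 3.09, 3.18 and 2.85 in MEP and at -2.87 and -1.51 in early erythroblasts (fitted difference -5.23 ± 0.33). On the array that measured them both lay below every MEP array.

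By role, the RNA polymerase I genes fell in 4 of 4, from -4.87 for Polr1b to -1.47 for Polr1c, which RNA polymerase III shares. Among nucleolar proteins 4 of 4 fell, with Mybbp1a at -4.35, Npm1 at -3.88, Nolc1 at -3.55 and Ncl, an RNA-binding protein of the nucleolus, at -2.40. Of the box C/D proteins, the methyltransferase Fbl changed by -3.11, Nop58 by -3.00 and Nop56 by -2.06. Of the box H/ACA proteins, Gar1 changed by -5.05, Nhp2 by -3.67 and the pseudouridine synthase Dkc1 by -2.35.

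Of the processome proteins measured in both groups 5 of 5 fell, from -4.49 for Rrp9 to -0.57 for Heatr1. Of the later small subunit factors only Ltv1 and Bysl were measured in both, and Ltv1 fell, by 3.91. For Utp20, Rrp12 and Utp15 a bound can be given against the lowest signal that was well above background. Utp20 was at least 15.6-fold lower (measured means -3.41 and 1.09). Rrp12 was at least 12.1-fold lower (means -3.53 and 0.73), and Utp15 at least 4.67-fold lower (means -4.04 and -0.65). Nob1, the nuclease that makes the final cut of the small subunit rRNA, had measured means of -2.79 and 1.48, 19.3-fold apart. Its early erythroblast values of -2.78 and -2.79 were not well above background. They still lay above the lowest detected signals of those arrays (-2.93 and -2.81), so no bound applies to Nob1. These 4 genes passed the filter through MEP only, so no p-value is given for them. The large subunit factors measured in both groups fell in 5 of 5, from -5.26 for Nop16 to -1.52 for Rrp1.

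Bysl was the gene that did not pass the test. Its level was 3.80, 3.99 and 3.71 in MEP and 3.87 and 3.62 in early erythroblasts, so the groups overlapped, and the difference was -0.09 ± 0.13 (adjusted p 0.53). Under other scalings it passed the test downward, at -0.27 (percentile over detected probes), -0.30 (quantile), -0.68 (normexp) and -3.64 (spike-ins), each time less than the median of the set. Heatr1, a processome protein that is also needed for RNA polymerase I transcription, lay at 5.07, 5.03 and 4.93 in MEP and at 4.29 and 4.59 in early erythroblasts. It fell by 0.57 ± 0.17 (adjusted p 0.0063), and without the first early erythroblast array the difference of -0.42 no longer passed (adjusted p 0.082). Each of these genes has 1 probe on the array, so no second probe could be compared.

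On slide 3, which held both cell types, all 32 were lower with a median of -3.60. The 32 include the 6 that entered only through MEP. These arrays were also among those that gave the calls, so this is no separate check. Granulocyte markers had a summed level of 566 to 1690 in early erythroblasts, and of 113 to 243 in MEP; each group had 5 of 6 detected throughout, Mmp9 being the one that was not. Macrophage markers had a summed level of 5.98 to 6.85 in early erythroblasts, with 6 of 6 well above background, and of 0.59 to 0.82 in MEP with 3 of 6. All 6 macrophage markers and the 5 granulocyte markers tested were called higher in early erythroblasts (medians 3.09 and 2.57). Their part in the result was not tested.

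**Figure D3:**
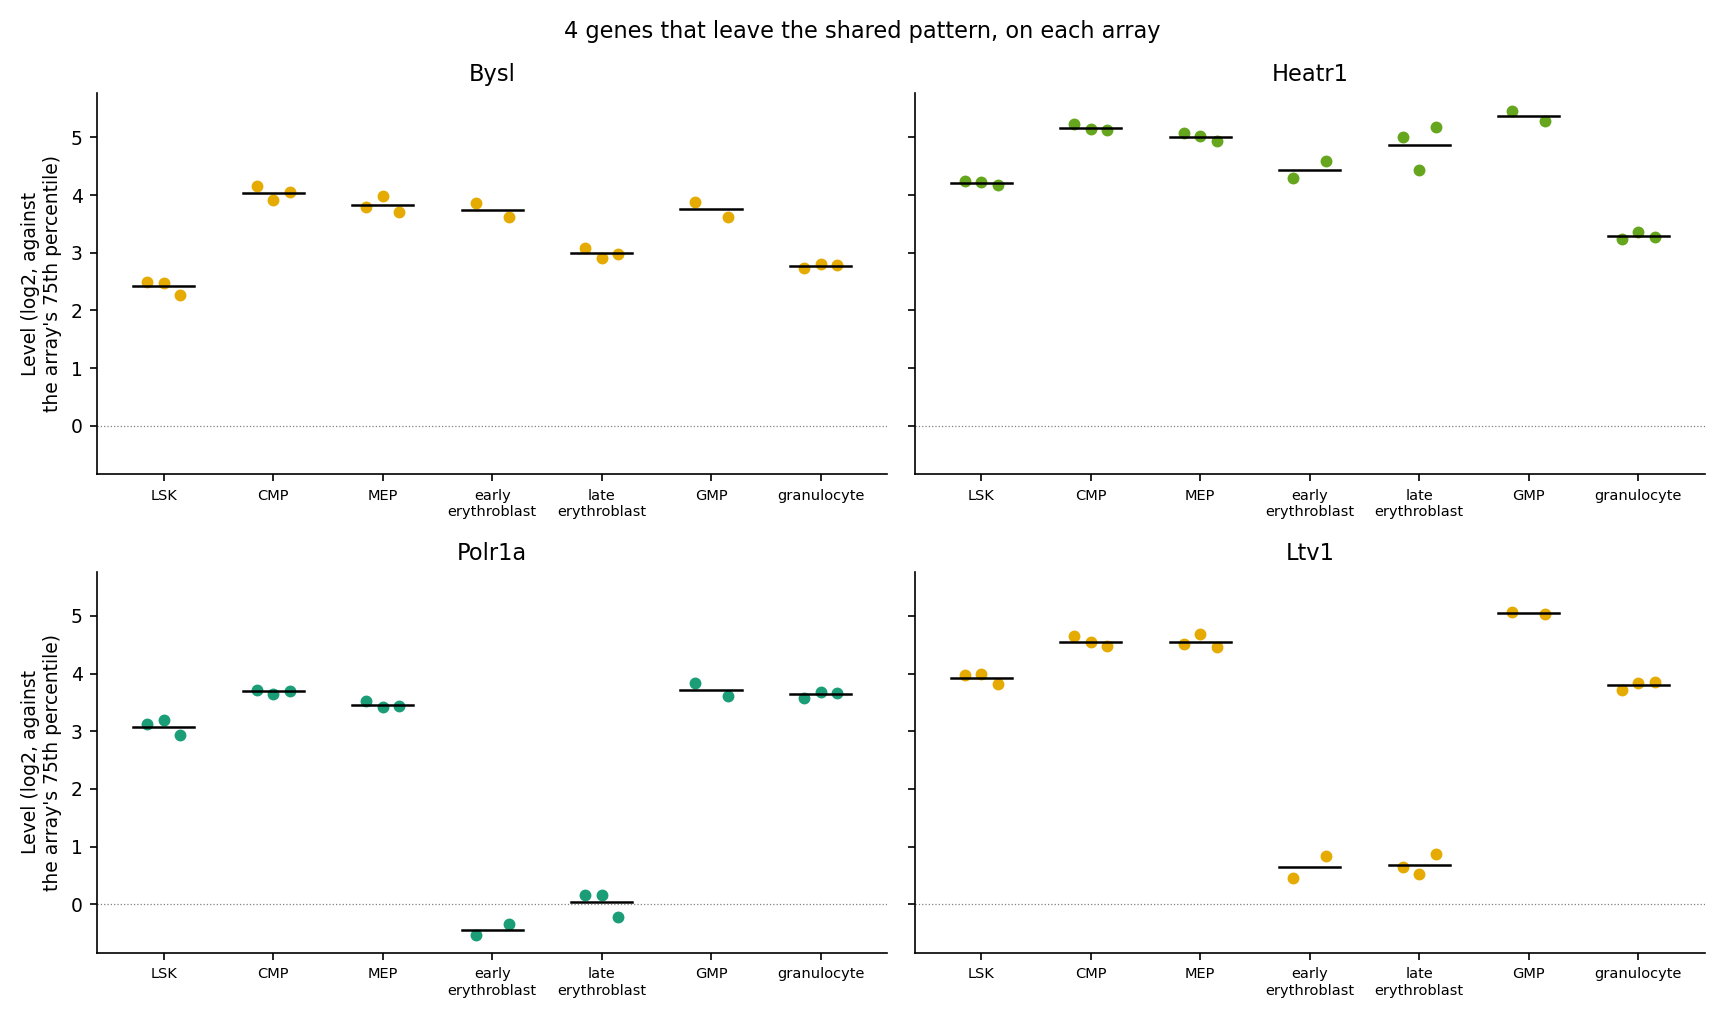
Level of Bysl, Heatr1, Polr1a and Ltv1 on each array (points; log2 against the array's 75th percentile) with the group mean (bar), by cell type. With this scaling Bysl and Heatr1 lie near the progenitor level in early erythroblasts (both are lower there against the spike-ins), where Polr1a lies at -0.54 and -0.35, and Polr1a lies at 3.58 to 3.68 in granulocytes.

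Between early and late erythroblasts genes were called in both directions. Of 26 genes tested, 8 rose and 10 fell, where 22.1% of all features were called higher and 37.7% lower; the median was -0.11 against -0.17 over all features. Both shares of the set lay near those of all features, so the counts show nothing particular to these genes. The 6 not tested were those not well above background on every array of either stage. The genes that rose were Polr1a, Polr1b, Mybbp1a, Wdr43, Heatr1, Rrp9, Bop1 and Nop16, although against the spike-ins Polr1a (-0.49), Mybbp1a (-0.11), Wdr43 (-0.48), Heatr1 (-0.54), Rrp9 (-0.08) and Bop1 (-0.49) had a negative difference that did not pass the test. Those that fell were Polr1c, Rrn3, Ncl, Nop56, Nop58, Dkc1, Utp14a, Nop14, Bysl and Rrp1.

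Polr1b had the largest rise, from -2.04 and -1.49 in early to -0.97, 0.48 and -0.92 in late erythroblasts (1.30 ± 0.32, adjusted p 0.0028; 0.82 without the second late array). Nop16 rose from -2.28 and -1.52 to -0.72, -0.72 and -1.35 (0.97 ± 0.26, adjusted p 0.0043). In both the stages did not overlap. Rrp9, a processome protein that binds the U3 snoRNA, lay at -2.37 and -1.06 in early and -0.19, -1.41 and -0.87 in late erythroblasts, and these overlapped (0.89 ± 0.34, adjusted p 0.035). All 3 remained far below their levels in MEP.

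Polr1c fell from 3.27 and 3.04 to 2.11, 1.61 and 1.94 (-1.27 ± 0.14, adjusted p 3e-06). Ncl fell from 4.53 and 4.46 to 3.45, 3.17 and 3.47 (-1.13 ± 0.14, adjusted p 7.8e-06). Nop58 fell from 2.20 and 2.41 to 1.16, 1.57 and 1.34 (-0.95 ± 0.16, adjusted p 0.00014). None of these 3 had overlapping stages, and all 3 kept their direction and call under each alternative tried. Bysl, not called between MEP and early erythroblasts, fell here, from 3.87 and 3.62 to 3.08, 2.90 and 2.98 (-0.76 ± 0.13, adjusted p 0.00016). A second, dimmer Ncl probe gave -0.24, and a second Utp14a probe gave 0.08 where the brightest gave -0.94.

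These counts depended on the setting. With spike-in scaling 0 rose and 10 fell, with normexp background correction 2 rose and 7 fell, and in a fit on these 5 arrays alone 0 rose and 7 fell. With the percentile over detected probes 13 rose and 4 fell. Without the first early erythroblast array 2 rose and 9 fell, and Nop16 (0.59, adjusted p 0.10) and Rrp9 (0.24, adjusted p 0.58) were among the calls lost. The Rrp9 call was also lost without the first (0.57, adjusted p 0.15) or the third late array (0.92, adjusted p 0.059). On both slides that held the 2 stages the 18 called genes kept their sign, but these arrays were among those that gave the calls, so this is no separate check. Over the 26 genes tested the median was 0.08 on slide 1 and -0.26 on slide 3. Granulocyte markers rose too, with a summed level of 566 to 1690 in early and 2450 to 2770 in late erythroblasts and 6 of 6 called, and so did those of granulocyte-macrophage progenitors, with a summed level of 82.4 to 260 in early and 375 to 396 in late erythroblasts and 6 of 6 called. Granulocytes held 30 of the 32 genes at a higher mean than late erythroblasts. The part of these markers in the result was not tested.

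**Figure D4:**
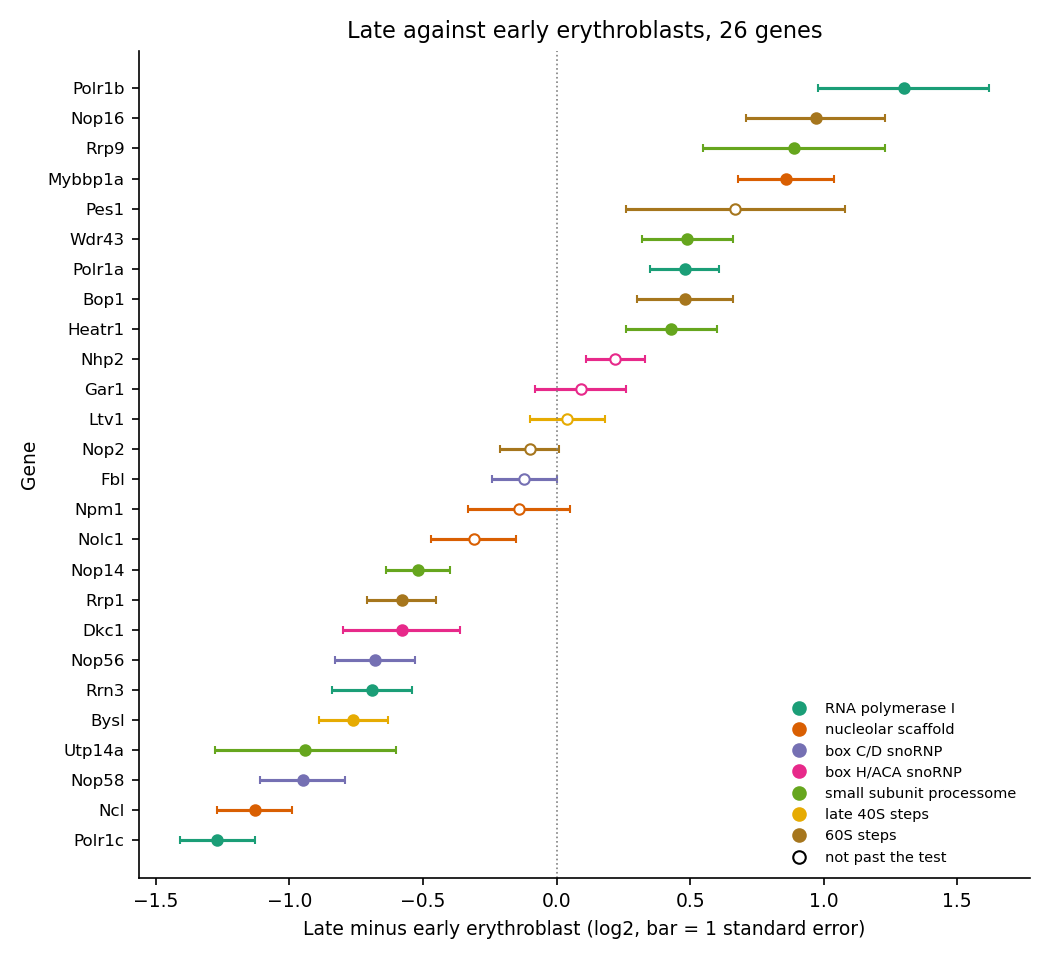
Difference of late minus early erythroblasts (log2, horizontal axis) for each of 26 genes, with 1 standard error. Filled points passed the test: 8 lie right of 0 and 10 left of it, and against the spike-ins 0 rise and 10 fall.

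From GMP to granulocytes 31 of 32 genes fell and 0 rose, where 38.9% of all features were called lower and 27.7% higher. In GMP and in granulocytes alike, all 32 exceeded background on each array. The median was -2.24 against -0.19 over all features. The smallest of the falls was that of Bysl, at -0.98. By role, the median was -1.72 for the RNA polymerase I genes, -2.49 for the nucleolar proteins, -2.65 for the box H/ACA proteins, -2.10 for the box C/D proteins, -2.19 for the processome, -2.03 for the later small subunit factors and -2.05 for the large subunit factors.

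The largest falls were those of Utp20, Wdr12 and Gar1. Utp20, a large processome protein, lay at 1.14 and 0.88 in GMP and at -1.82, -1.75 and -1.90 in granulocytes (-2.83 ± 0.27, adjusted p 3e-07). Wdr12 lay at 2.33 and 2.24 in GMP and at -0.55, -0.57 and -0.53 in granulocytes (-2.83 ± 0.26, adjusted p 2.8e-07). Gar1 lay at 6.00 and 5.90 in GMP and at 3.13, 3.14 and 3.19 in granulocytes (-2.80 ± 0.17, adjusted p 3.6e-09). Granulocyte replicates lay closer together than the GMP pair in each.

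Polr1a, the largest and catalytic subunit of RNA polymerase I, was the exception. It lay at 3.83 and 3.61 in GMP and at 3.58, 3.68 and 3.67 in granulocytes, so the groups overlapped, and the difference was -0.08 ± 0.13 (adjusted p 0.63). The alternatives gave -0.20 to 0.26, none past the test. Its partner subunit Polr1b changed over the same step by -2.67 ± 0.32 (from 3.01 and 2.73 to 0.18, 0.26 and 0.16), Polr1c by -2.0 and the initiation factor Rrn3 by -1.44, each past the test. Polr1a also stood above its LSK mean in granulocytes, by 0.56, as did Bysl by 0.36, while 30 of the 32 stood below it; granulocytes were not tested against LSK cells.

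With spike-in scaling 24 of 32 fell, and with the slide as a block 29 did. No slide held both GMP and granulocytes, so a value within a slide cannot be given. Erythroblast markers had a summed level of 577 to 621 in granulocytes, with 5 of 5 well above background, and 7.81 to 11.1 in GMP with 4 of 5, macrophage markers one of 69.2 to 72.6 against 9.45 to 9.46, and B cell markers one of 36.2 to 38.4 against 14.1 to 16.8. Of the T and NK cell markers 4 of 6 were higher and 1 lower in granulocytes, with a summed level of 76 to 80.1 against 130 to 192. Their part in the result was not tested.

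The 2 maturation steps were then set against each other, as the change from MEP to late erythroblasts minus the change from GMP to granulocytes. This was tested in the 26 genes well above background in all 4 groups. The difference was negative, meaning a deeper erythroid fall, in 21 and positive in 1, where 35.6% of all features were called negative and 42.5% positive. The median was -1.32 against 0.22 over all features. It was called negative in 3 of 4 RNA polymerase I genes, 4 of 4 nucleolar proteins, 5 of 6 snoRNP proteins, 3 of 5 processome proteins, 1 of 2 later small subunit factors and 5 of 5 large subunit factors.

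Polr1a had the largest such difference: it fell to 0.16, 0.16 and -0.22 in late erythroblasts from 3.53, 3.42 and 3.43 in MEP, a change of -3.43, against -0.08 in the granulocytic step. The difference between the steps was -3.35 ± 0.17 (adjusted p 1.6e-10). Ltv1 changed by -3.87 in the erythroid step, to 0.65, 0.52 and 0.88, and by -1.26 in the granulocytic one, to 3.71, 3.83 and 3.85, a difference of -2.61 ± 0.18 (adjusted p 3.7e-09). Gar1 changed by -4.96 and -2.80, a difference of -2.16 ± 0.22 (adjusted p 2.7e-07).

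Heatr1 went the other way. Its level was 5.0, 4.43 and 5.18 in late erythroblasts against 5.07, 5.03 and 4.93 in MEP, a change of -0.14, and 3.24, 3.36 and 3.28 in granulocytes against 5.46 and 5.28 in GMP, a change of -2.08. The difference between the steps was 1.94 ± 0.22 (adjusted p 1.1e-06). This sign rests on the scaling: against the spike-ins, where all features had a median difference of -4.64, that of Heatr1 was -2.92 and 26 of 26 genes were called negative. Bysl changed by -0.85 and -0.98 in the 2 steps (difference 0.13 ± 0.17, adjusted p 0.51), and under normexp (-0.69) and against the spike-ins (-4.73) the difference was negative and passed the test. With the slide as a block 17 of the 26 were negative and 1 positive.

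**Figure D5:**
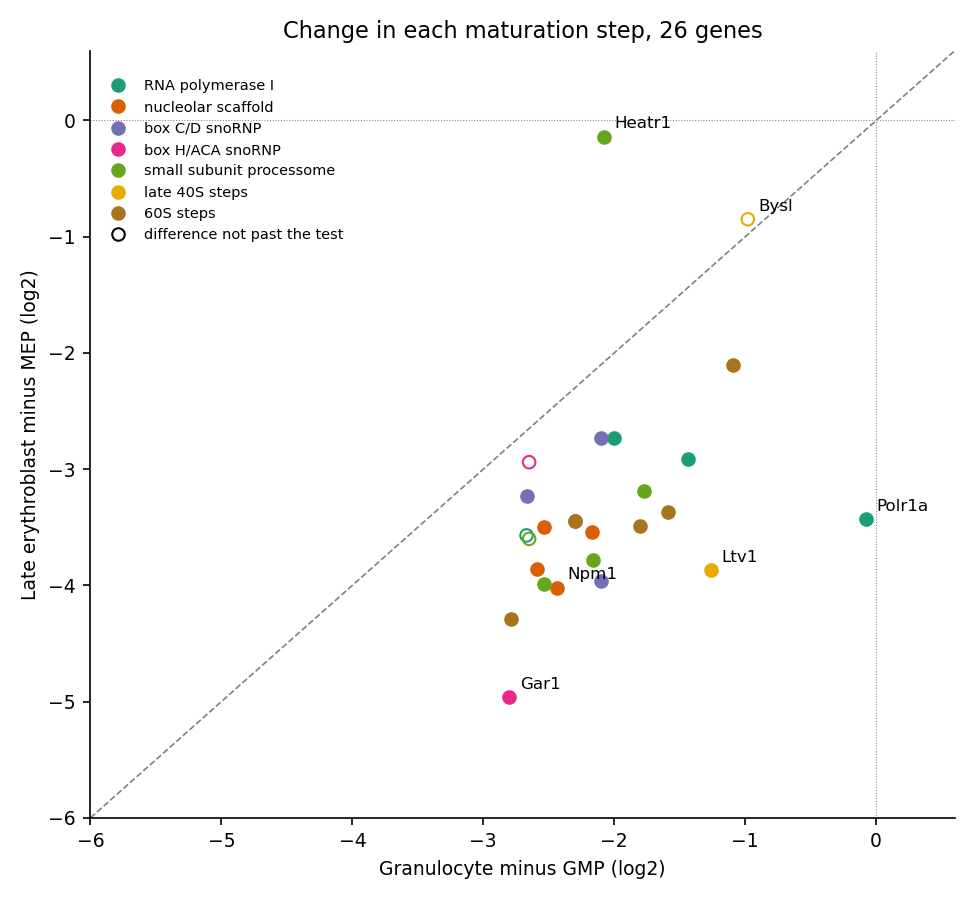
Change from MEP to late erythroblasts (vertical axis, log2) against the change from GMP to granulocytes (horizontal axis, log2) for 26 genes coloured by role; the dashed line marks equal change. Filled points differ between the steps in the test: 21 lie below the line and Heatr1 above it, which turns against the spike-ins (-2.92).

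A wider list of 120 other biogenesis genes, all but 1 of them on the array, was read beside the 33. The shares over all features given above for each comparison apply to these counts too. From LSK cells to CMP 81 of 118 tested rose and 0 fell (median 0.60), led by Npm3 (1.52 ± 0.38), Ddx21, a helicase of the nucleolus (1.34 ± 0.22), and Mrto4 (1.30 ± 0.19). Between MEP and CMP limma called 0 of 117, with 5 lower and 0 higher at an unadjusted p under 0.05. GMP exceeded CMP in Krr1 (0.67) and Ebna1bp2 (0.42), the 2 of 117 called. In MEP against GMP 3 of 116 were higher, namely Nol7 (0.83), Rcl1 (0.46) and Riok2 (0.36), and 9 lower, with Krr1 (-0.86), Ddx49 (-0.72) and Wdr18 (-0.62) the largest.

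From MEP to early erythroblasts 102 of 116 were called lower and 4 higher (median -2.45), where 37.7% of all features were called lower and 43.6% higher. The 102 and the median include genes that passed the filter through MEP only and had to differ to be there. A count without them is not given here. The largest fitted falls were those of Mdn1, the AAA ATPase that remodels the large subunit, Rrp15, and Cd3eap, a subunit of RNA polymerase I. All 3 were well above background on 0 of 2 early erythroblast arrays. They passed the filter through MEP only, so no p-value is given for them. Mdn1 was at least 13.9-fold lower (measured means -4.59 and 0.93) and Cd3eap at least 27.2-fold (-3.27 and 1.89). Rrp15 had measured means of -2.74 and 2.67. The first lay above the lowest detected signals of the early erythroblast arrays (-2.93 and -2.81), so no bound is given for Rrp15. Among those that rose was Ubtf, the factor that holds ribosomal DNA open for RNA polymerase I, from a mean of 7.39 to 10.38 (3.00 ± 0.30, adjusted p 2.2e-07). Utp6 (1.47 ± 0.15) and Noc3l (1.01 ± 0.13) rose too. Between the erythroblast stages 15 of 107 rose, with Rcl1 (1.67), Polr1e (1.04) and Npm3 (1.03) the largest; the last 2 were well above background on 1 of 2 early arrays. There 44 fell, with Esf1 (-1.67), Utp3 (-1.59) and Nol7 the largest. Nol7, well above background on 0 of 3 late arrays, passed the filter through early erythroblasts only and was at least 1.70-fold lower (means -4.13 and -1.91). From GMP to granulocytes 108 of 117 fell and 0 rose (median -1.56), led by Nle1 (-3.09), Wdr18 (-2.92) and the acetyltransferase Nat10 (-2.87). In the comparison of the 2 steps 73 of 101 were negative, with Cebpz (-4.05), Riok2 (-2.74) and Ngdn (-2.73) the largest, and 11 positive, with Ubtf (2.58), Rcl1 (2.45) and Utp6 (1.96) the largest.

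Lists of the pathway's products and of other translation genes were read in the same way. Of all features 37.7% were called lower and 43.6% higher from MEP to early erythroblasts. Between the erythroblast stages these shares were 37.7% and 22.1%, and from GMP to granulocytes 38.9% and 27.7%. From LSK cells to CMP they were 13.5% and 23.3%. The counts of the lists can include genes that passed the filter through the higher group only. From MEP to early erythroblasts 56 of 79 cytosolic ribosomal protein genes fell and 6 rose (median -0.63), 56 of 77 mitochondrial ribosomal protein genes fell and 9 rose (median -1.21), and 12 of 20 cytosolic aminoacyl-tRNA synthetases fell and 4 rose (median -0.80). Between the erythroblast stages the ribosomal protein genes fell in 79 of 79 (median -0.95), the mitochondrial ones in 62 of 77 with 2 higher (median -0.90) and the synthetases in 15 of 19 (median -0.83). From GMP to granulocytes they fell in 78 of 79, 74 of 77 and 19 of 20, with medians of -1.21, -1.36 and -1.43. From LSK cells to CMP they rose in 27 of 79, 72 of 77 and 17 of 20, with medians of 0.29, 0.83 and 0.71. These lists differ in signal and detection from the 33 genes, and the differences between lists were not tested.

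Second probes gave a check within 9 genes, namely Ncl, Npm1, Nolc1, Nop56, Utp14a, Wdr43, Tsr1, Pes1 and Rrp1. In the 3 comparisons with many calls (CMP with LSK, early erythroblasts with MEP, granulocytes with GMP) every second probe had the sign of the brightest. Sizes differed more: for the fall into early erythroblasts Nolc1 gave -3.55 and -5.57 (the latter from a probe well above background on 14 of 19 arrays), Wdr43 -4.27 and -5.28, Pes1 -4.04 and -2.66, and the 5 Npm1 probes -4.05 to -3.03. From LSK cells to CMP the brightest Pes1 probe read a difference of 0.10, which did not pass the test, and the other probe 0.50. Signs disagreed for Utp14a between the erythroblast stages, as given above, and among the progenitor comparisons for Ncl, Npm1, Nolc1 and Wdr43, where no probe's difference was larger than 0.43 in size.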

How the data were processed

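The deposited intensity values came from Agilent Feature Extraction 11.5.1.1, per the file headers, which subtracts background and flags spots. The authors' series table matched each array's background-subtracted intensity within 1% in 100% of its entries, so it was not scaled between arrays, and served as an alternative. Controls and flagged outliers were dropped, and repeated spots of a probe were averaged; log2 values were taken from the deposited processed signal, and each array's 75th percentile was subtracted. Accessions were named through RefSeq tables of assembly GRCm38.p6 (27235 of 59628 probes), giving 38391 features.

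Cell type means were fitted over all 19 arrays with limma 3.58.1 in R 4.3.3 (lmFit, eBayes) with Benjamini-Hochberg adjustment at 0.05 over all features tested. A feature was tested if well above background on every array of either group (of all 4 for the comparison of steps), and called if the higher group was. An "at least" fold sets the brighter mean against a dimmer mean in which no array counts for less than its lowest detected signal. None is given where the dimmer mean lay above that signal. The fit was tested on simulated data. Precision is limited by the number of arrays and, on the erythroblast arrays, by signal near the background.

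The genes and lists were chosen with earlier results of these data known. Described with every sample's value were the 3 largest called differences in each direction and calls against the majority, with the exceptions the text names chosen after their values were seen. Normexp used median spot signals, in place of the mean signal planned for it, which was not used here. Promoters were searched for letters only, and proteins were not analysed here. 1 planned marker gene is not reported here. Pairing was looked for by the replicate numbers of the sample titles only. Same-numbered arrays of different groups had correlations of -0.52 to 0.48 (median -0.02) in their deviations from the group means. Deviations within groups this small cancel by construction, so these values do not show that the samples were unpaired. The sample labels number the arrays of some groups otherwise, and pairing by those numbers was not tested. Arrays of different groups on 1 slide had correlations of -0.02 to 0.59 (median 0.27), against a median of -0.05 on different slides, and the slide was tried as a block.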

Additional observations from a re-analysis of the deposited data

Results flagged for a closer look

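For 22 of the 26 genes tested the change from MEP to late erythroblasts differed from the change from GMP to granulocytes. Limma's test of that difference gave them adjusted p-values from 1.6e-10 (Polr1a) to 0.0081 (Nop56 and Utp14a). Over all features tested 35.6% were called negative and 42.5% positive. A call of either sign was therefore common. The log2 differences, erythroid change minus granulocytic change, were -3.35 for Polr1a, -2.61 for Ltv1 and -2.16 for Gar1. They were -1.86 for Nop58, -1.78 for Pes1, -1.69 for Bop1, -1.63 for Wdr43, -1.58 for Npm1 and -1.50 for Nop16. Next came Rrn3 (-1.47), Nop14 (-1.44), Utp14a (-1.43), Ncl (-1.37), Nolc1 (-1.27), Nhp2 (-1.15), Nop2 (-1.15) and Rrp1 (-1.02). The smallest were -0.96 for Mybbp1a, -0.73 for Polr1c, -0.63 for Nop56 and -0.57 for Fbl. Heatr1 was positive, at 1.94. Groups held 2 or 3 arrays, too few to look for single outlying samples.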

How the results depend on the processing

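The falls from MEP to early erythroblasts and from GMP to granulocytes, the comparison of the 2 steps and the F test stayed within 1.5 times their counts under every alternative run. From LSK cells to CMP, 28 calls became 17 (quantile), 15 (percentile over detected probes) and 2 (spike-ins). Late against early erythroblasts gave 9 with normexp, 10 with spike-ins and 7 in a fit on those groups alone, against 18. GMP against CMP gave 3 with normexp, 3 with quantile, 2 with detected probes, and 0 with spike-ins, without a filter and with the slide as a block, against 1. MEP against GMP gave 2 with normexp, 6 with quantile, 5 with detected probes, 0 with spike-ins, 2 with the series values and 0 with those groups alone, against 1. Without 1 array the counts ranged from 23 to 25 (CMP against LSK), 0 to 1 (GMP against CMP, MEP against GMP), 30 to 32 (early erythroblast against MEP), 11 to 18 (late against early, 11 without the first early array) and 22 to 24 (the 2 steps). Against the spike-ins signs turned for Ltv1 (-0.24 in GMP against CMP, 0.26 in MEP against GMP), Polr1a (-0.49), Mybbp1a (-0.11), Wdr43 (-0.48), Heatr1 (-0.54), Rrp9 (-0.08) and Bop1 (-0.49) between erythroblast stages, and Heatr1 (-2.92) and the uncalled Bysl (-4.73) between the steps. Other turns were Rrp1 from LSK cells to CMP with quantile (-0.06), Bysl between the steps with normexp (-0.69) and Nop2 between stages with detected probes (0.27); uncalled differences that stayed so are not listed. Of 522 values of named genes under alternatives 479 kept direction and call. The replicate block gave 27, 0, 1, 1, 31, 16, 31 and 22 calls in the order of the comparisons so it moved no count by over 1.5 times. Over all features, the share of calls that were higher moved with quantile, detected probes and spike-ins from 63.4% to 51.4%, 32.3% and 46.7% (CMP against LSK), from 52.9% to 42.4%, 36% and 15.2% (GMP against CMP, 63.2% with normexp) and from 42.3% to 54.2%, 66.1% and 81.8% (MEP against GMP). With detected probes it moved from 41.3% to 62.9% (MEP against CMP), and with detected probes and spike-ins from 37% to 55.6% and 2.41% (late against early) and from 41.6% to 52.7% and 64.5% (granulocytes). With spike-ins it moved from 53.6% to 3.07% (early erythroblasts) and from 54.4% to 0.53% (the 2 steps). The E-box count of 9 became 3 without the bases after the start. Signal limits the erythroblast arrays: their lowest levels well above background were -2.93 to -2.54, against -5.81 to -3.79 elsewhere. The cause of these shifts was not tested.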

Other observations

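Bysl lies beside Ccnd3, Taf8 and Med20 on chromosome 17, and these neighbours were looked up after the level of Bysl had been seen. Ccnd3, a cyclin of the G1 phase, had a mean level of 5.61 in MEP, 8.94 in early and 7.15 in late erythroblasts. Taf8 had means of 2.72, 3.92 and 4.08 in the same order, and Med20 of 2.18, 3.00 and 2.43. Heatr1 lies beside Mtr, whose means were 3.39, 3.67 and 3.15, and beside Lgals8 at 1.80, 1.51 and 0.58. Polr1a lies between genes that include Ptcd3 and Immt, whose means went from 5.08 and 3.86 in GMP to 3.44 and 2.34 in granulocytes, and St3gal5, which went from 0.46 to 6.45. These are values of neighbouring genes and no test was made of them.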
